A study of Mus musculus with 8 samples.

Results

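The oxidative phosphorylation genes encode the subunits of the 4 respiratory chain complexes (I to IV) and of the ATP synthase (complex V). Members were the genes with one of the 13 mitochondrial symbols (COX1, COX2, COX3, ATP6, ATP8, CYTB, ND1 to ND6 and ND4L), or with a matching nuclear symbol. Nuclear symbols matched if they began with Uqcr or Atp5, or were Sdha to Sdhd. Those with Nduf needed a, b, c, s or v and then a digit, and those with Cox4 to Cox8 needed a, b or c. Subunit genes with other symbols, such as Cox4i1 and Cox4i2, are therefore not among the members. On the gene lines that held a count for every library, 74 of 17326 genes met this rule, 13 encoded in mitochondrial DNA and 61 in the nucleus. The nuclear members were 39 of complex I, 4 of complex III, 15 of complex IV and 3 of complex V. A further 27 matching symbols, 3 of them pseudogenes, stood on lines with fewer than 8 counts and were not analysed here. They include all 4 subunits of complex II (Sdha, Sdhb, Sdhc and Sdhd), 15 matching symbols of complex V, and Ndufa4, Cox6b1, Uqcrfs1 and Uqcrq. Complex II is therefore not described, and complex V rests on Atp5pb, Atp5md and Atp5mpl beside the mitochondrial ATP6 and ATP8.

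Polyadenylated RNA was sequenced from mouse kidney cells separated by fluorescence-activated cell sorting. The groups were endothelium from EMCN+/+ mice, endothelium from EMCN-/- mice, podocytes from EMCN+/+ mice and podocytes from EMCN-/- mice, with 2 libraries each, numbered 2 and 3. The series describes the cells as glomerular, and Emcn encodes endomucin, a sialomucin of the endothelial surface. Strain, age, sex, the way the allele was made and the markers of the sort are not given in the sources used here, nor is it stated whether libraries came from separate animals, so p-values measure the spread between these libraries. Counts on complete lines ranged from 10478956 to 17386042 per library. Emcn was lower in knockout endothelium (log2 fold change -3.43, SE 0.35, adjusted p = 0.0205, edgeR quasi-likelihood test) and in knockout podocytes (-3.38, SE 0.36, adjusted p = 0.0321). All 10 endothelial markers were higher in endothelium and all 7 podocyte markers on complete lines were lower there, over both genotypes. Markers of the distal nephron and collecting duct (Umod, Calb1, Aqp2, Aqp3 and Pvalb), which neither sorted type should express, summed to between 2640.7 and 15050.0 CPM, a gene's counts as a rate over edgeR's TMM-scaled library size, the scale of every level here.

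In the respiratory chain, complexes I and II pass electrons to ubiquinone, complex III passes them on to cytochrome c and complex IV to oxygen. Complexes I, III and IV move protons across the inner mitochondrial membrane, and the ATP synthase uses their return to make ATP. Complexes I, III, IV and V are built from subunits of both genomes: the mitochondrial genes encode core subunits and are copied as long transcripts that are cut into mRNAs, while the nuclear genes are transcribed one by one and their proteins imported. Kidney tubule cells, above all those of the proximal tubule and thick ascending limb, are rich in mitochondria, and podocytes and glomerular endothelium hold fewer.

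The mitochondrial genes lie close together on chrM (GENCODE M21, GRCm38), and 4 neighbouring pairs share bases. ATP8 and ATP6 share 43 bases (chrM:7927-7969), ND4L and ND4 share 7, ATP6 and COX3 share 1, and ND5 shares 14 with ND6, which is on the other strand. Whether the authors' counting used strand is not given in the sources used here, so reads in these stretches cannot be assigned to 1 gene. The overlap matters most for ATP8, the shortest member, at chrM:7766-7969 on the plus strand. Its sequence is shown for that reason, with the bases shared with ATP6 in capitals.
ATP8: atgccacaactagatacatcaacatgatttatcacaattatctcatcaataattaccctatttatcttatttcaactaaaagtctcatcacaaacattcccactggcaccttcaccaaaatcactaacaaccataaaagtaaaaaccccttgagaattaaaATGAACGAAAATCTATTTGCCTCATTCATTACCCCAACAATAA
ATP8 encodes a small subunit of the membrane part of the ATP synthase, and the capitals begin with the start codon of ATP6, the subunit that forms the proton path.

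For the nuclear members, promoter windows from RefSeq (GRCm38.p6, 250 bases before to 50 after the gene's start) are shown for the member of highest mean CPM in each complex. The window of Ndufb8, an accessory subunit of complex I, is chr19:44555393-44555692 on the minus strand. That of Uqcrc1, a core subunit of complex III, is chr9:108936398-108936697 on the plus strand. That of Cox8a, a small subunit of complex IV, is chr19:7217567-7217866 on the minus strand, and that of Atp5pb, the b subunit of the ATP synthase stalk, is chr3:105959214-105959513 on the minus strand. Capitals mark matches, on either strand, to letters of the cores bound by NRF1 (TGCGCATGC), by ETS factors such as GABPA (CCGGAAG) and by YY1 (AAGATGGC), factors known for their binding at respiratory chain genes.
Ndufb8: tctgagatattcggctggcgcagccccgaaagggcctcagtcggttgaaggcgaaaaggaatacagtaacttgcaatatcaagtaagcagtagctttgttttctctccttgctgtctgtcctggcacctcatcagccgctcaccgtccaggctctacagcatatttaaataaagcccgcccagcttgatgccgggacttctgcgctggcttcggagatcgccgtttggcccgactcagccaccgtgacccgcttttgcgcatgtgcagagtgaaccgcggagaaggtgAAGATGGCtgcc
Uqcrc1: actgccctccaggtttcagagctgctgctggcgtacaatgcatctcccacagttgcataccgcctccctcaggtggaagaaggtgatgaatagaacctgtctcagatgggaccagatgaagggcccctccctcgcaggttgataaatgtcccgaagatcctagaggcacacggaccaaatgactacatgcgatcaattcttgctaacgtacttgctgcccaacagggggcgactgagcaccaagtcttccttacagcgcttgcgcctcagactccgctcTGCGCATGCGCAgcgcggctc
Cox8a: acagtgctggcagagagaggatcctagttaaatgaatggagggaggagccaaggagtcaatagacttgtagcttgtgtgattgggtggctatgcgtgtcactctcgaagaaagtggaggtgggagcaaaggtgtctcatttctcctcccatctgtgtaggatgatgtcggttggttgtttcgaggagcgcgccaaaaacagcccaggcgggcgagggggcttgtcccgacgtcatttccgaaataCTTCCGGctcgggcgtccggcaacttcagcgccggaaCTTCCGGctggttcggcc
Atp5pb: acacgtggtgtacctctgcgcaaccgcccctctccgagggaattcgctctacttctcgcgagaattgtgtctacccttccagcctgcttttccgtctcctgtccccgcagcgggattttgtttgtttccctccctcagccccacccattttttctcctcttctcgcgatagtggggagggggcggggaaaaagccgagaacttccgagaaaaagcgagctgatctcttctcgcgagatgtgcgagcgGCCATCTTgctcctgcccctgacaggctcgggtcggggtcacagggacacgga
Ndufb8 and Atp5pb each held 1 YY1 match, Cox8a held 2 ETS matches, and Uqcrc1 held 2 NRF1 matches that overlap each other. A window was found for 48 of the 61 nuclear members. The YY1 letters were present in 8 of the 48 (16.7%) against 3.19% of 27025 genes, the ETS letters in 8 (16.7%) against 9.93%, and the NRF1 letters in 3 (6.25%) against 1.72%. At least 1 of the 3 motifs was in 19 of the 48 windows (39.6%) and in 13.9% of all genes' windows. The letters were chosen with the Ndufb8 window already seen, and that window is 1 of the 8 with the YY1 letters. The 27025 genes include genes not tested here, so they are not matched to the members in expression. These shares describe letters only, and no link of a motif to the levels was tested.

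The mitochondrial mRNAs took a large and uneven part of every library. In wild-type endothelium they made up 11.69% of counts in replicate 2 (95% Wilson interval 11.67 to 11.71) and 23.09% in replicate 3 (23.07 to 23.11). In knockout endothelium the shares were 9.137% (9.12 to 9.15) and 16.85% (16.83 to 16.87). In wild-type podocytes they were 11.06% (11.04 to 11.07) and 15.5% (15.48 to 15.52), and in knockout podocytes 11.92% (11.90 to 11.93) and 19.95% (19.93 to 19.97). These intervals cover counting error only. Replicate 3 was the higher library in each group, and the ranges of all 4 groups overlapped. Within replicate numbers 2 and 3, the knockout share was 0.782 and 0.73 of the wild-type share in endothelium, and 1.08 and 1.29 in podocytes.

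The 61 nuclear members together took a much smaller share. It was 1.589% (1.582 to 1.596) and 2.161% (2.154 to 2.168) in wild-type endothelium, and 1.127% (1.121 to 1.133) and 1.908% (1.900 to 1.917) in knockout endothelium. In wild-type podocytes it was 1.486% (1.480 to 1.491) and 1.599% (1.592 to 1.605), and in knockout podocytes 1.264% (1.259 to 1.270) and 1.797% (1.790 to 1.804). As for the mitochondrial share, the highest value was in wild-type endothelium replicate 3 and the lowest in knockout endothelium replicate 2, and the group ranges overlapped. Within numbers 2 and 3, the knockout share was 0.709 and 0.883 of the wild-type share in endothelium, and 0.851 and 1.12 in podocytes.

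**Figure D1:**
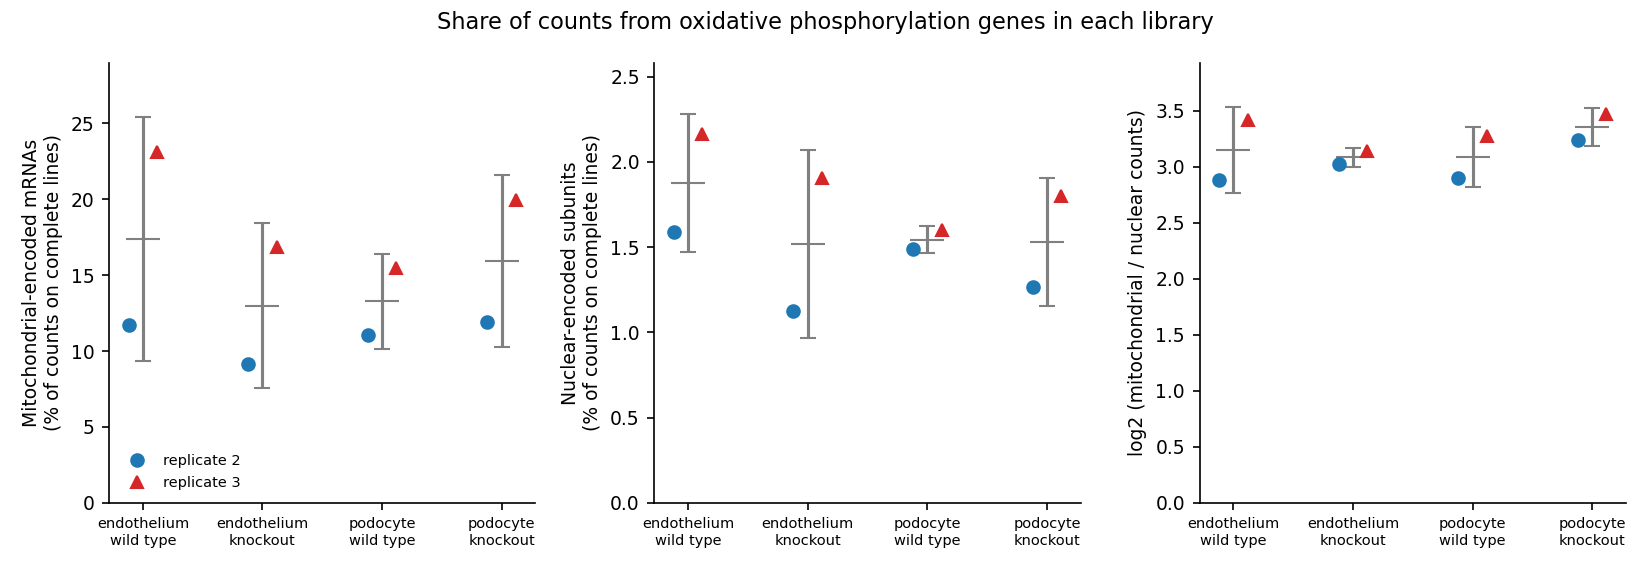
Share of counts on complete gene lines from the 13 mitochondrial-encoded members (left, %) and the 61 nuclear-encoded members (middle, %), and the log2 ratio of their counts (right), in each of 8 libraries; circles are replicate 2, triangles replicate 3, and grey bars the group mean and SD (n = 2). Replicate 3 lies above replicate 2 in every group in all 3 panels. The groups overlap except for the ratio in the knockout, where both podocyte libraries lie above both endothelial ones.

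Counts from mitochondrial genes exceeded those from nuclear members in every library. The ratio was 7.355 and 10.69 in wild-type endothelium, 8.109 and 8.828 in knockout endothelium, 7.442 and 9.693 in wild-type podocytes, and 9.426 and 11.1 in knockout podocytes, in the order of replicates 2 and 3. Mean ratios were 9.021 ± 2.355 for EMCN+/+ endothelium, 8.469 ± 0.5088 for EMCN-/- endothelium, 8.567 ± 1.592 for EMCN+/+ podocytes and 10.26 ± 1.183 for EMCN-/- podocytes (SD, n = 2 each). Ratios of the wild-type and knockout libraries overlapped within each cell type, and in the knockout both podocyte ratios exceeded both endothelial ones. With 2 libraries against 2 an exact permutation test on this ratio cannot go below a two-sided p of 0.333, so none is given. On the log2 scale the knockout mean differed from the wild-type mean by -0.07 in endothelium and 0.27 in podocytes. The difference in endothelium turned to 0.20 without wild-type endothelium replicate 3 and was -0.34 without wild-type endothelium replicate 2. In podocytes it ran from 0.08 to 0.46 as each podocyte library was left out.

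Within the mitochondrial set, the level per length followed a wide range. CYTB, the mitochondrial subunit of complex III, had the highest mean level over the 8 libraries, 30731.0 CPM per kilobase. COX1, the catalytic subunit of complex IV, had 26604.9 CPM per kilobase and COX3, another core subunit of that complex, 26517.2. The complex I subunit ND1 stood at 17434.6, while ND5, ND6, ND4L and ND3 of the same complex stood at 2271.3, 1785.4, 912.7 and 679.7 CPM per kilobase. ATP6 stood at 21491.9 and ATP8 at 3195.7 CPM per kilobase. ATP6 and ATP8 overlap, as do ND4L and ND4, so their values are counts assigned per gene. They are not read as levels of separate mRNAs. The highest nuclear members per kilobase were Cox8a at 1374.7, the complex I subunit Ndufa1 at 1225.0 and the complex IV subunit Cox6a1 at 1167.3, above ND3 and ND4L and below the other 11 mitochondrial members. Lengths came from GENCODE M21 for 70 of the 74 members, as the median over protein-coding transcripts of the basic set.

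The mix of the 13 mitochondrial genes varied less than their total. COX1 made up 25.52% to 28.68% of the 13 genes' counts, CYTB 21.08% to 23.81% and COX3 13.06% to 14.04%. The highest share over the lowest was 1.06 for ND1 and 1.9 for ND3, the least abundant, whereas the highest CPM over the lowest lay between 3.497 and 4.911 for the 13 genes. For 2 of the 13, picked out after their values were seen, the shares of the 4 endothelial libraries did not overlap those of the 4 podocyte libraries. COX1 made up 26.68% and 27.89% (wild type) and 28.68% and 27.58% (knockout) in endothelium, against 25.52% and 25.6% and then 26.61% and 26.09% in podocytes. ND5, a proton-pumping subunit of complex I, made up 2.409%, 2.425%, 2.637% and 2.694% in endothelium and 2.722%, 2.829%, 3.146% and 2.887% in podocytes. These are shares of a whole, so the share of any gene moves with the others', and no test was run on them.

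**Figure D2:**
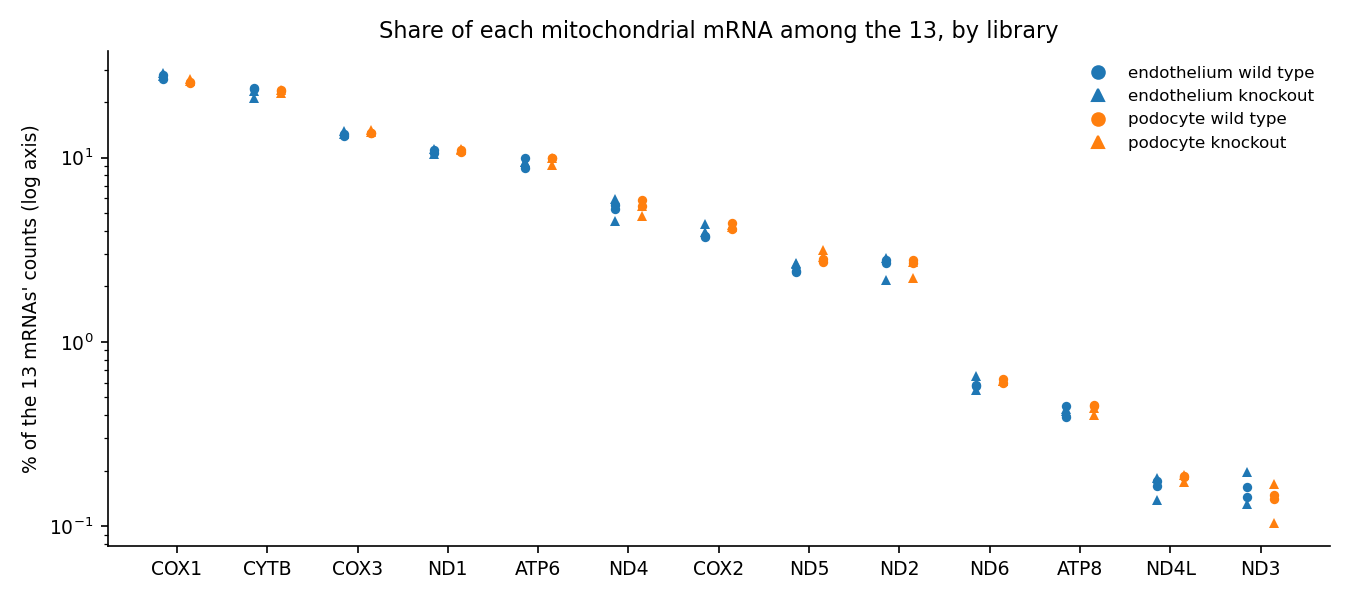
Share of each mitochondrial gene among the counts of the 13 (%, log axis), with 1 point per library. Blue is endothelium, orange podocytes, circles wild type and triangles knockout. COX1, CYTB and COX3 lead in every library, and ND3 varies most, by 1.9 times.

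Levels of the members varied together from library to library, and the extremes lay in 2 libraries of different groups. Each of the 13 mitochondrial members had its highest CPM in wild-type endothelium replicate 3 and its lowest in knockout endothelium replicate 2. The same 2 libraries were the extremes for 53 of the 60 nuclear members tested, 88.3%, against 5.07% of all 16477 genes tested. COX1 had 29331.4 and 77091.4 CPM in wild-type endothelium and 20594.3 and 41885.7 in knockout endothelium. In podocytes it had 31783.6 and 42627.3 CPM in wild type and 31989.7 and 53532.9 in knockout. Its replicate 3 was higher in each group, and each pair of groups overlapped.

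CYTB, in the same order of groups and replicates, had 26181.3, 65163.0, 16447.6, 32015.2, 28777.0, 38714.7, 28057.1 and 45894.2 CPM. ND1 had 12107.0, 29200.1, 7527.9, 16819.6, 13367.4, 18421.7, 13421.6 and 22614.2 CPM. For both genes, as for COX1, replicate 3 was higher in each group and each pair of groups overlapped. ATP6 had 10982.3, 24365.0, 6800.8, 14459.5, 12429.8, 16640.3, 11000.8 and 20409.4 CPM, so that complex V's mitochondrial mRNA followed those of complexes I, III and IV.

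Nuclear members did likewise over a smaller range. Uqcrc1 had 869.1 and 1336.9 CPM in wild-type endothelium, 523.6 and 885.8 in knockout endothelium, 871.5 and 913.6 in wild-type podocytes, and 692.7 and 883.0 in knockout podocytes. Cox8a had 622.5, 1112.8, 348.9, 795.0, 854.8, 814.4, 614.4 and 885.9 CPM in the same order, and in wild-type podocytes its replicate 2 was the higher. Atp5pb had 458.6, 712.7, 239.8, 470.6, 504.2, 542.9, 358.3 and 517.3 CPM. Each pair of groups overlapped for Uqcrc1, while for Cox8a and Atp5pb both knockout endothelial libraries lay below both wild-type podocyte libraries and the other pairs of groups overlapped. By complex, the summed CPM of the nuclear members was 2.86 times higher in the highest library than in the lowest for complex I, 2.641 for III, 3.206 for IV and 3.337 for V. For the mitochondrial members the same quantity was 4.142, 3.962, 3.721 and 3.579.

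Replicate 3 exceeded replicate 2 for all 13 mitochondrial members in all 4 groups. The same held in all 4 groups for 39 of the 60 nuclear members tested, against 6.61% of all genes tested. By group it held for 58 of the 60 in wild-type endothelium, 59 in knockout endothelium, 42 in wild-type podocytes and 57 in knockout podocytes. The corresponding shares of all genes were 41.8%, 46.5%, 52.2% and 51.5%. The median log2 ratio of replicate 3 to replicate 2 was 1.34, 1.16, 0.42 and 0.80 for the mitochondrial members in those 4 groups, and 0.84, 0.93, 0.05 and 0.55 for the nuclear ones. The mitochondrial members thus spread further than the nuclear ones between libraries of 1 group.

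Other transcripts moved with this pattern. The summed CPM of the 5 distal nephron and collecting duct markers was 6695.8 and 15050.0 in wild-type endothelium, 2640.7 and 6430.3 in knockout endothelium, 5224.9 and 11747.5 in wild-type podocytes, and 4615.0 and 7591.4 in knockout podocytes. It was higher in replicate 3 in all 4 groups, and it shared its highest and lowest library with the oxidative phosphorylation genes. None of the 5 markers was at 0 in any library. Umod, the uromodulin of the thick ascending limb, led the sum in 6 libraries, with 9554.4 CPM in wild-type endothelium replicate 3 and 1317.4 in knockout endothelium replicate 2. Calb1 and Pvalb were higher in replicate 3 in every group, as Umod was, but the collecting duct water channels Aqp2 and Aqp3 were higher in replicate 2 in both knockout groups. The 6 proximal tubule markers ran otherwise, with 291.5, 435.4, 696.3, 459.9, 617.5, 1049.6, 2561.4 and 713.7 CPM. The 17 immediate-early and heat shock genes, known to respond to tissue dissociation, were also highest in wild-type endothelium replicate 3 (51289.8 CPM) and lowest in knockout endothelium replicate 2 (27788.8). In podocytes they ran the other way, with replicate 3 below replicate 2 in wild type (40032.5 against 48172.4 CPM) and in knockout (33704.7 against 39106.2). The part of these transcripts in the levels of the oxidative phosphorylation genes was not tested. In sorted bulk samples, fewer cells of a type and less RNA per cell cannot be told apart.

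**Figure D3:**
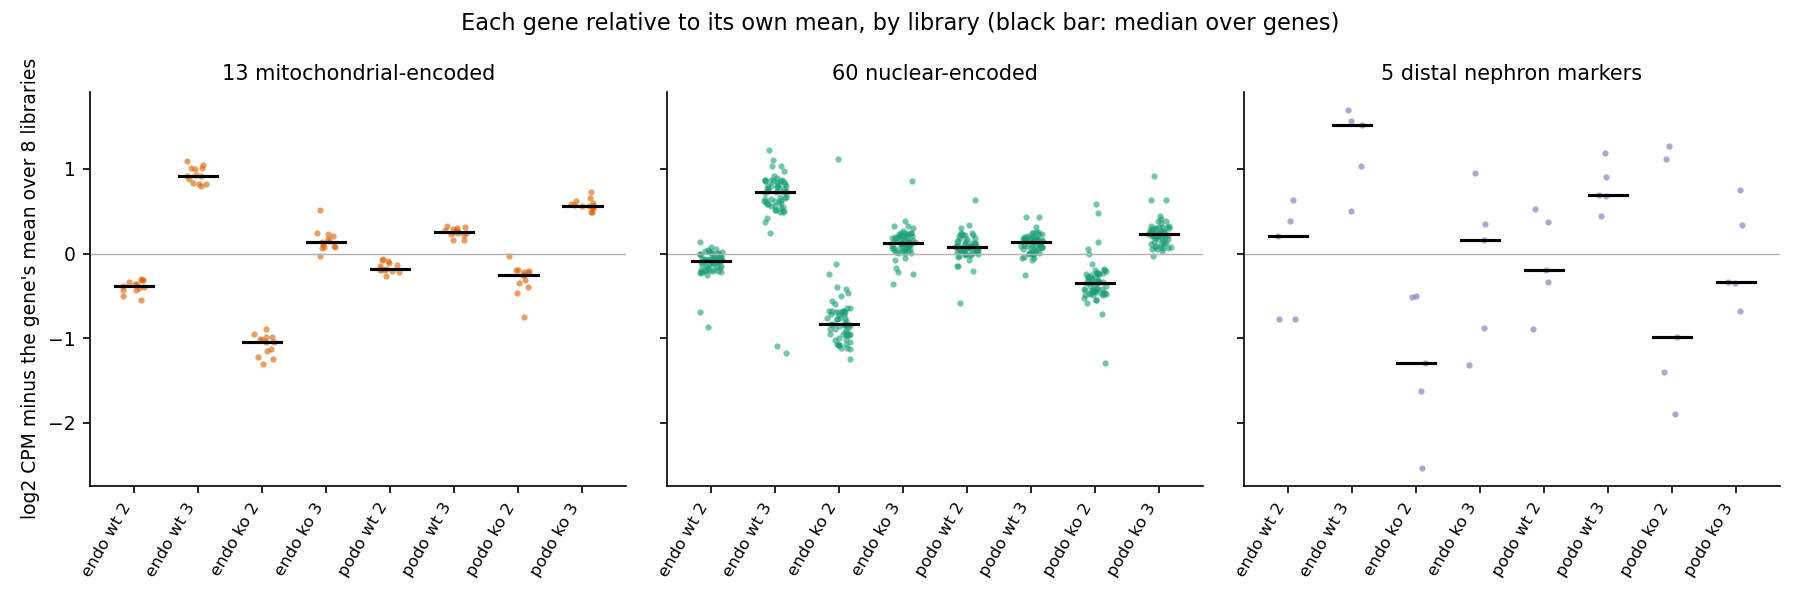
Log2 CPM of each gene minus its own mean over the 8 libraries, for the 13 mitochondrial-encoded members, the 60 nuclear-encoded members tested and the 5 distal nephron markers; endo and podo are endothelium and podocytes, wt and ko wild type and knockout, and black bars are medians. All 3 sets peak in wild-type endothelium replicate 3 and the 13 mitochondrial members are lowest in knockout endothelium replicate 2.

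The first question of the design is what loss of Emcn changes in endothelium. No member passed the threshold there (0 of 73 tested, edgeR's quasi-likelihood test, adjusted p under 0.05), where 0.00607% of all genes did, which is Emcn itself. At an unadjusted p under 0.05 there was 1 member, Ndufs1, against 5.49% of all genes. That count differed as single libraries were left out: it was 60 of 74 without knockout endothelium replicate 3 (6.07% of all genes) and 53 without wild-type endothelium replicate 2 (12.8%). It was 0 without either of the other endothelial libraries (3.33% of all genes without the knockout one, 1.89% without the wild-type one), and 0 members were called at the adjusted threshold in these 4 fits. Each of them leaves 1 library in a group, which is assumed to vary like the libraries of the other groups, and each also tests Cox6a2, below the low-count filter otherwise. DESeq2 called 0 members, with 15 at an unadjusted p under 0.05, against 6.65% of all genes in DESeq2. With replicate number as a block in edgeR, 53 of 73 members had an unadjusted p under 0.05, against 8.1% of all genes, and 0 were called. The labels do not say whether a number marks 1 animal, and the values that follow are without a block. All 13 mitochondrial members had log2 fold changes below 0, from -0.91 (CYTB) to -0.62 (COX2), with a median of -0.75 where that of all genes was 0.01. Of the nuclear members, 58 of 60 were below 0, with a median of -0.64 and a range of -0.96 to 1.0. Scaling by library size alone gave medians of -0.38 for the mitochondrial, -0.30 for the nuclear members and 0.33 for all genes. With genes kept at a mean of at least 5 CPM, the members' medians were -0.58 and -0.48.

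The SE of a mitochondrial member lay between 0.46 and 0.62, and COX1, at -0.77, had a 95% interval of -2.02 to 0.49. Without wild-type endothelium replicate 3 the median was 0.08 for the mitochondrial and -0.15 for the nuclear members, and 9 of the 13 mitochondrial members, COX1 and COX2 among them, were above 0. Without knockout endothelium replicate 3 the medians were -1.46 and -1.21. Without knockout endothelium replicate 2 they were -0.29 and -0.25, and without wild-type endothelium replicate 2 they were -1.27 and -0.99. The distal nephron markers, at a median of -1.19, were below 0 in the same comparison for 5 of 5, none of them past the threshold. The 17 immediate-early and heat shock genes were below 0 for 17 of 17, with a median of -0.68. None of them passed the threshold, 7 had an unadjusted p under 0.05, and for 16 the knockout libraries did not overlap the wild-type ones and were lower, against 19.7% of all genes. Of the podocyte markers, 6 of 7 were below 0 (median -0.44), while the mural and mesangial markers had a median of 0.90 with 3 of 5 above 0 and 2 at an unadjusted p under 0.05, none past the threshold in either list. The part of these 4 lists in the members' values was not tested.

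By complex, all 39 nuclear subunits of complex I were below 0 in knockout endothelium (median -0.64), as were the 4 of complex III (-0.61) and the 3 of complex V (-0.72). In complex IV, 12 of 14 tested were below 0 (-0.61), and the 2 above 0 were Cox8c and Cox7b2. Both are isoforms known from testis. Cox8c, whose 2 wild-type libraries had 2.356 and 0.8685 CPM and whose knockout libraries had 4.794 and 1.634, had the highest log2 fold change of the members, 1.0 (SE 0.74, adjusted p = 0.727). Cox7b2, at 1.748 and 0.7238 CPM against 1.551 and 1.806, had 0.44 (SE 0.70, adjusted p = 0.847). These genes lie near the lower end of what was measured, and their groups overlapped.

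Ndufs1 encodes the largest core subunit of complex I, which carries iron-sulfur clusters. It had 286.4 and 334.7 CPM in wild-type endothelium, 155.5 and 243.7 in knockout endothelium, 347.6 and 381.8 in wild-type podocytes, and 294.2 and 288.2 in knockout podocytes. Its knockout libraries lay below the wild-type ones in both cell types. The log2 fold change was -0.64 in endothelium (SE 0.26, interval -1.21 to -0.07, adjusted p = 0.716) and -0.32 in podocytes (SE 0.26, adjusted p = 0.978), so neither passed. In endothelium the libraries did not overlap for 2 of 73 members, both lower, Ndufs1 and the complex III core subunit Uqcrc2. Of all genes, 19.7% were lower and 24.8% higher in that way, so the members' share was below that background.

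Ndufb8 had 653.0 and 1180.5 CPM in wild-type endothelium and 352.8 and 720.4 in knockout endothelium, with a log2 fold change of -0.77 (SE 0.37, adjusted p = 0.716). Ndufv2, a subunit of the NADH-binding module of complex I, had 595.6 and 967.2 against 319.9 and 604.1 CPM and a log2 fold change of -0.76 (SE 0.37, adjusted p = 0.716). The wild-type and knockout ranges of both genes overlapped, each wild-type replicate 2 lying below the knockout replicate 3.

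In podocytes the knockout comparison also called 0 of 73 members, where 0.00607% of all genes passed, again Emcn, and 0 members reached an unadjusted p under 0.05 in edgeR or DESeq2, against 4.43% of all genes in edgeR. The mitochondrial members had a median log2 fold change of 0.15, with 13 of 13 above 0 (0.05 to 0.26). The nuclear members had a median of -0.12, with 54 of 60 below 0, but under scaling by library size alone the median was -0.01 and 28 of 60 were above 0. The median over all genes was 0.02 and 0.13 under these 2 scalings. Without knockout podocyte replicate 3 the medians were -0.29 and -0.43, and without knockout podocyte replicate 2 they were 0.51 and 0.13. Without wild-type podocyte replicate 2 the mitochondrial median was -0.03. The direction of the mitochondrial members in podocytes thus turned on single libraries. In the same comparison 6 of 6 proximal tubule markers were above 0 (median 0.84) and 7 of 7 podocyte markers were below 0 (median -0.56), none past the threshold. Their part in the members' values was not tested.

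In podocytes 4 members had knockout libraries below both wild-type libraries, Ndufs1, Ndufv1, Ndufs6b and Cox7c, against 16% of all genes, and 0 lay above, against 15.1%. Cox7c, a small subunit of complex IV, had 63.77 and 64.1 CPM in wild-type and 40.69 and 56.78 in knockout podocytes (log2 fold change -0.39, SE 0.42, adjusted p = 0.98). Ndufs6b, a copy near-identical to Ndufs6 whose counts are uncertain for that reason, had 13.22 and 12.34 against 8.076 and 10.91 CPM (-0.43, SE 0.42, adjusted p = 0.978). The same uncertainty holds for Ndufb4, Ndufb4b and Ndufb4c and for Ndufa11 and Ndufa11b. The nuclear members above 0 with the smallest p were Cox7a1 (0.31, SE 0.53), Cox6b2 (0.18, SE 0.48) and Cox8b (0.44, SE 1.36), none with an adjusted p under 0.99.

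Whether knockout and wild type were further apart in one cell type than in the other was tested as the interaction, which called 0 of 73 members and 0% of all genes. At an unadjusted p under 0.05 there were 0 members against 2.6% of all genes. With replicate number as a block in edgeR there were 2, against 3.31% of all genes, and 0 were called. DESeq2 also called 0. The median interaction was -0.89 for the mitochondrial and -0.50 for the nuclear members (-0.03 for all genes), with SEs from 0.64 to 0.87 for the mitochondrial ones. As each library was left out, the mitochondrial median ran from -1.61 to -0.11 and the nuclear one from -1.07 to -0.03. The mitochondrial value of -0.11 was the one without wild-type endothelium replicate 3. The nuclear members of smallest p were Cox7a1 (-1.27, SE 0.76), Ndufb8 (-0.85, SE 0.52) and Ndufa5 (-0.62, SE 0.52), all with an adjusted p of 1. Without wild-type endothelium replicate 3 the values of Cox7a1, Ndufb8 and Ndufa5 were -0.0169, -0.36 and -0.0212, and with other libraries left out they reached -1.94, -1.46 and -1.07. Cox8c (0.83, SE 1.04) and Cox7b2 (0.71, SE 0.98) were the 2 nuclear members above 0.

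**Figure D4:**
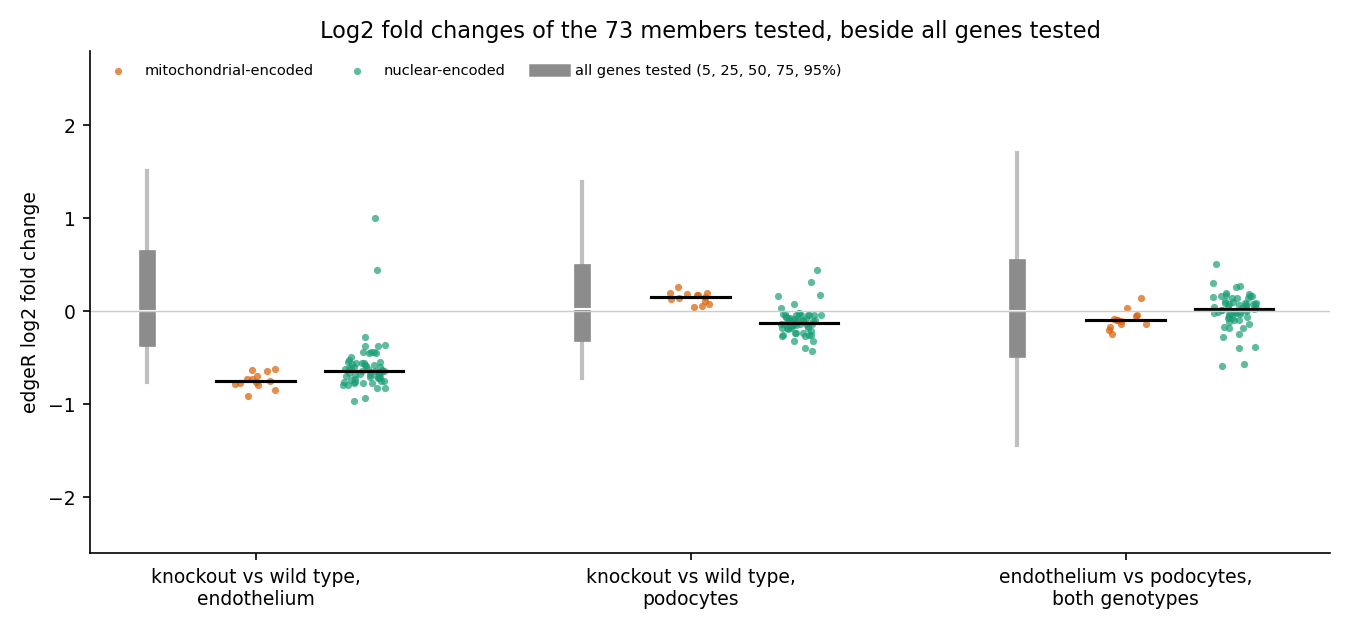
Log2 fold changes of the 73 members tested (orange mitochondrial-encoded, green nuclear-encoded, black bars medians) in 3 comparisons, beside grey bars for all 16477 genes tested (5, 25, 50, 75 and 95 percentiles). In knockout endothelium both sets lie below 0 (medians -0.75 and -0.64), and between cell types both lie near 0 (-0.09 and 0.02).

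Between endothelium and podocytes, over both genotypes, 18.3% of all genes passed the threshold and 0 of 73 members did. At an unadjusted p under 0.05 there were again 0 members, against 30% of all genes, and DESeq2 called 0. The median log2 fold change was -0.09 for the mitochondrial members (range -0.25 to 0.14) and 0.02 for the nuclear ones (-0.59 to 0.50). The 95% interval lay within 2-fold in either direction for 11 of the 13 mitochondrial and 54 of the 60 nuclear members (90%), against 37% of all genes. In knockout against wild-type endothelium this held for 0 of 13 and 1 of 60, against 33.6% of all genes, and in podocytes for 0 of 13 and 36 of 60, against 36.6%. Such a count depends on the fold as well as on its error. A value that misses the threshold does not show that levels are alike, and the median of the mitochondrial members changed sign when libraries were scaled by their size alone. As each library was left out, it ran from -0.49 to 0.16 and the nuclear median from -0.27 to 0.22.

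The comparison within each genotype gave opposite signs. In wild type, endothelium against podocytes called 0 of 73 members and 8.99% of all genes, with medians of 0.37 (mitochondrial) and 0.28 (nuclear). In knockout it called 0 of 73 and 10.4% of all genes, with medians of -0.56 and -0.23, the latter turning to 0.02 under scaling by library size alone. The wild-type medians were -0.44 and -0.20 without wild-type endothelium replicate 3. As each library was left out, the knockout medians ran from -1.31 to -0.10 and from -0.81 to 0.17. Without a block, 0 members reached an unadjusted p under 0.05 in either genotype in DESeq2 or edgeR, where edgeR gave 19.6% of all genes in wild type and 22.9% in knockout. With replicate number as a block in edgeR there were 0 in wild type (21.3% of all genes) and 8 in knockout (25%), and 0 were called. In wild type the libraries did not overlap for Ndufa8, higher in endothelium, against 21.2% of all genes, and for Ndufs1 and Cox7b2, lower, against 25.7%. In knockout they did not overlap for 5 members, all lower, against 27.8% of all genes lower and 27.3% higher. Those 5 were Ndufs1, Ndufb8, Cox6b2, Cox7a1 and Uqcrc2.

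Ndufs1 had the smallest p over both genotypes, at -0.39 (SE 0.18, interval -0.79 to 0.01, adjusted p = 0.18), followed among those below 0 by Cox6b2 (-0.56, SE 0.34, adjusted p = 0.315) and Uqcrc2 (-0.27, SE 0.20, adjusted p = 0.418). Uqcrc2 had 329.0, 447.7, 193.1 and 327.7 CPM in the endothelial libraries and 393.8, 400.1, 344.1 and 401.8 in the podocyte libraries, and its cell types overlapped because of wild-type endothelium replicate 3. Above 0 the smallest p values were those of Ndufa8 (0.27, SE 0.23), Ndufb7 (0.26, SE 0.26) and Cox7a2l (0.16, SE 0.19), with adjusted p of 0.482, 0.57 and 0.639. Ndufa8 and Ndufb7 are accessory subunits of complex I, and Cox7a2l is known for its part in joining complexes III and IV. For none of the 73 members tested did the 4 endothelial libraries stand apart from the 4 podocyte libraries, against 9.59% of all genes higher and 12.3% lower in that way.

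Several subunits of complex IV exist as variants, a common one and one known from heart and skeletal muscle or from testis. The muscle form Cox6a2 was the 1 member below the low-count filter. It had 1, 0, 0 and 1 counts in the endothelial libraries and 12, 6, 19 and 3 in the podocyte libraries, that is 2 against 40. Scaled for library size, podocytes held 17.94 times the endothelial level, with a counting interval of 4.651 to 153.2. Tested without the low-count filter, where 17.4% of 17326 genes passed, Cox6a2 was lower in endothelium (log2 fold change -3.82, SE 1.13, adjusted p = 0.0396). With the filter, it was tested in 7 of the 8 fits that left out a library and was called in 1 of them (without knockout podocyte replicate 3), with edgeR adjusted p values from 0.0222 to 0.147. Its count is at most 0.2505% of Cox6a1 and Cox6a2 together, so the common form made up nearly all of the pair in each library. Cox6a2 was singled out after its values were seen.

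Cox7a1, the muscle form, and Cox7a2, its common counterpart, were closer in abundance. Cox7a1 made up 18.23% and 33.28% of the pair's counts in wild-type endothelium, 20.12% and 21.36% in knockout endothelium, 23.59% and 30.23% in wild-type podocytes, and 39.5% and 26.14% in knockout podocytes. Wild-type and knockout libraries overlapped in each cell type, and in the knockout both podocyte libraries exceeded both endothelial ones. No test was run on this share. Of the other variants, the testis form Cox7b2 and the forms Cox8b and Cox8c made up at most 0.798%, 0.09729% and 1.356% of the counts with their common partners Cox7b and Cox8a. Cox6b2 stood between 3.032 and 7.02 CPM.

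Other genes that serve the same machinery were taken as lists, and none of the listed genes passed the threshold in either genotype comparison or in the interaction. Most are not subunits, but the list of other respiratory chain genes also names subunits outside the rule, such as Cyc1 and Cox4i1. Between cell types over both genotypes, 4 of 43 assembly factors fell in endothelium and 0 rose, with a median of -0.09, where 11.1% of all genes fell and 7.19% rose. In this comparison 3 of 6 proximal tubule markers (median -0.91) and 8 of the 17 immediate-early and heat shock genes were also called lower in endothelium, and their part in the values of the lists that follow was not tested. Uqcc1, which helps to make cytochrome b for complex III, had 121.6, 137.9, 78.68 and 115.4 CPM in endothelium and 272.5, 229.5, 193.4 and 196.9 in podocytes (log2 fold change -0.98, SE 0.17, adjusted p = 0.00232). Every endothelial library lay below every podocyte library. Ttc19, a factor of complex III (-1.02, SE 0.25, adjusted p = 0.018), Coa5, a factor of complex IV (-0.69, SE 0.15, adjusted p = 0.00972), and Tmem126b, a factor of complex I (-0.54, SE 0.16, adjusted p = 0.0345), were the others. Tmem126b fell outside the rule for named genes and is given to complete the count.

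Of the 21 tested genes of mitochondrial DNA copying, transcription and RNA processing, 2 fell in endothelium and 0 rose (median -0.14). Of all genes, 11.1% fell and 7.19% rose. The 2 were Elac2, which cuts the 3' ends of mitochondrial tRNAs out of the long transcripts (-0.61, SE 0.17, adjusted p = 0.0304), and Fastkd2, an RNA-binding protein of mitochondria (-0.60, SE 0.17, adjusted p = 0.0323). The mitochondrial mRNAs themselves had a median of -0.09 in the same comparison. Of 7 regulators of mitochondrial biogenesis, 1 fell, Myc (-1.07, SE 0.24, adjusted p = 0.0111), against 11.1% of all genes, and the others did not pass (median -0.27).

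Of 11 other genes of the respiratory chain and the mitochondrial membranes, 1 rose and 1 fell in endothelium (median -0.18). Of all genes, 7.19% rose and 11.1% fell. Both called genes of this list encode channels of the outer membrane. Vdac3 had 201.3, 243.4, 177.2 and 187.0 CPM in endothelium and 138.1, 132.5, 119.2 and 127.1 in podocytes (0.64, SE 0.15, adjusted p = 0.0116). Vdac1 had 310.4, 367.1, 194.2 and 301.9 CPM in endothelium and 743.9, 635.9, 569.4 and 591.9 in podocytes (-1.13, SE 0.19, adjusted p = 0.00179). The cell types did not overlap for either gene, and the genes differed in opposite directions. Of 77 mitochondrial ribosomal protein genes, 1 fell, Mrpl50 (-0.59, SE 0.18, adjusted p = 0.0441), and 0 rose (median -0.03), a share below that of all genes in both directions.

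None of the 10 tested genes of the tricarboxylic acid cycle (median -0.25) or the 9 of glycolysis (-0.12) passed between cell types. With edgeR 1 gene in each of these lists reached an unadjusted p under 0.05, against 30% of all genes. In knockout endothelium the medians of these lists were -0.55 and -0.59, near those of the subunits, and all 10 genes of the cycle and 8 of the 9 of glycolysis were below 0. There 6 of the 10 genes of the cycle and 1 of the 9 of glycolysis had an unadjusted p under 0.05, against 5.49% of all genes. The libraries did not overlap, with the knockout lower, for 7 genes of the cycle and 1 of glycolysis, against 19.7% of all genes. With the knockout higher this held for 0 genes of the cycle and 1 of glycolysis, against 24.8% of all genes. The summed CPM of the cycle and that of glycolysis were highest in wild-type endothelium replicate 3 and lowest in knockout endothelium replicate 2, as for the subunits. The other lists were also mostly below 0 in knockout endothelium. There 40 of 43 assembly factors (median -0.35), 77 of 77 mitochondrial ribosomal genes (-0.35) and 21 of 21 genes of mitochondrial DNA and RNA (-0.25) were below 0. So were 7 of 7 regulators (-0.40) and 10 of 11 other chain genes (-0.50). Ttc19, Coa5, Tmem126b, Elac2, Fastkd2, Vdac3 and Mrpl50 lost their call when single libraries were left out, with adjusted p values up to 0.163, while Uqcc1, Vdac1 and Myc were called in all of those fits.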

How the data were processed

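RNA was counted per gene in 8 libraries, 2 in each of 4 groups by cell type and genotype, grouped by the labels. The authors deposited raw read counts per Entrez gene in 1 table. The submitters' processing notes name the genome build mm10 and DESeq2, and the aligner, counter, annotation and use of strand are not given in the sources used here. Of 22533 gene lines, 5207 (23.11%) had a comma in the gene's description and fewer than 8 counts, and only the 17326 complete lines were used. In 3 of the deposited columns the short lines left cells that are not counts (recorded here under another unit), while all values on complete lines were whole numbers. All 8 columns of values matched a sample.

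The deposited counts went unchanged into edgeR 4.0.16 (R 4.3.3). Its filterByExpr by group kept 16477 genes, libraries were scaled by TMM, and all 8 libraries entered 1 model of the 4 group means. Contrasts used the quasi-likelihood F test with Benjamini-Hochberg adjustment over all genes tested and a threshold of 0.05, and every adjusted p in the text is edgeR's. SE is the log2 fold change over the square root of F. Log2 CPM used a prior count of 2. DESeq2 1.42.0 was an alternative, with other scalings, other filters, a replicate block and each library left out. On simulated data for endothelium against podocytes, 4 libraries against 4, among 15817 genes, the share found was 55% at 2-fold (80 genes), 96.25% at 4-fold (80 genes) and 100% at 8-fold (40 genes), with 17 false calls of 178.

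The members and the gene lists were chosen with earlier results of these data known. Named were all mitochondrial members, the 3 nuclear members of smallest p in each direction of a comparison where none passed, the member of highest mean CPM per complex, the tissue variants of complex IV and, of the other lists, up to 3 genes of largest fold in each direction between cell types. Of the lists, the lines held 43 of 48 assembly factors, 21 of 29 genes of mitochondrial DNA and RNA, 7 of 14 regulators, 11 of 24 other chain genes, 10 of 17 of the tricarboxylic acid cycle and 9 of 20 of glycolysis. The mural and mesangial list (129.9 to 756.6 summed CPM) was lower in every endothelial library than in every podocyte library. So was the immune list (24.32 to 119.4), through Csf1r, which was called lower in endothelium, while the other 3 immune markers tested were above 0 and 1 of them was called higher, and 0 of 5 erythroid markers were on complete lines. Sequences and positions are from GENCODE M21 and RefSeq on GRCm38.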

Additional observations from a re-analysis of the deposited data

How the results depend on the processing

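The count of members past the threshold was 0 in 99 of 101 alternatives, each counted once per comparison. Where a library was left out, the lone library of its group was assumed to vary like those of the other groups. Between cell types over both genotypes it ranged from 0 to 1 as each library was left out, and was 1 with no low-count filter, in both cases Cox6a2. The fit that called it left out knockout podocyte replicate 3, its lowest podocyte library, and in 6 other such fits it was tested and not called, so this call adds no support. Leaving out each library in turn moved the medians of log2 fold change as follows. In knockout endothelium they ran from -1.46 to 0.0762 for the mitochondrial and from -1.21 to -0.15 for the nuclear members. For the interaction they ran from -1.61 to -0.11 and from -1.07 to -0.0269. For endothelium against podocytes the mitochondrial median ran from -0.44 to 0.88 in wild type and from -1.31 to -0.10 in knockout, and the nuclear median in knockout from -0.81 to 0.17. The log2 difference of the mitochondrial-to-nuclear ratio ran from -0.34 to 0.20 for knockout against wild-type endothelium and from -0.21 to 0.33 for endothelium against podocytes in wild type. Single members changed sign when a library was left out: Cox8c in the interaction (-0.15 to 1.71), Cox7b2 in knockout endothelium (-0.0676 to 1.19), Cox8b in knockout podocytes (-2.18 to 1.35), and between cell types Ndufb7 (-0.0807 to 0.49) and Cox7a2l (-0.0257 to 0.30). In knockout endothelium 9 of the 13 mitochondrial members were above 0 without wild-type endothelium replicate 3: ND1 (-1.46 to 0.0005), ND2 (-1.77 to 0.0005), COX1 (-1.38 to 0.0834), COX2 (-1.36 to 0.1809), COX3 (-1.37 to 0.0762), ND3 (-1.69 to 0.3043), ND4 (-1.70 to 0.0770), ND5 (-1.31 to 0.1688) and ND6 (-1.53 to 0.1213). Over all named members, comparisons and alternatives, 293 of 3208 values (9.133%) had another sign than reported, 220 of them with a library left out, and the single members above are from the comparisons in which the report names genes with values. Apart from these smaller samples, the cause was not tested. Under scaling by library size alone the median of all genes was 0.33 in knockout endothelium, 0.13 in knockout podocytes, 0.18 in the interaction, 0.27 between cell types in knockout and 0.17 over both genotypes, where TMM scaling gave values from -0.03 to 0.02. Under it the medians turned to 0.02 for the nuclear members in knockout and for the mitochondrial members over both genotypes. Over all genes tested, deviations of same-numbered libraries from their group means correlated by 0.188 between genotypes in endothelium and 0.157 in podocytes, and between cell types by -0.129 in wild type and 0.111 in knockout. These values are small and differ in sign, and they do not describe the members alone. The labels do not say that a number marks 1 animal, so the numbers were not taken to pair libraries. With a replicate block, 0 members were called in any comparison. In knockout endothelium 53 of 73 members then had an unadjusted p under 0.05, against 8.1% of all genes in the same fit, and against 1 member without the block, with a smallest adjusted p of 0.562, and over all genes the block moved no count of calls by over 1.5 times. With the podocyte numbers swapped, an alternative chosen after seeing the data, the block called 1357 genes between wild-type cell types, against 1831 as numbered and 1481 without a block, and 0 members in each.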
